A study of Saccharomyces cerevisiae with 3 samples.

Results

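Transcripts of a strain without *SPT8* (*spt8Δ*) were compared with those of wild type (WT) over 5116 of the 5449 *S. cerevisiae* genes that the arrays name. Left out were 256 genes of the subtelomeres, for which the 8 probed genes closest to each chromosome end stood, and 77 other genes whose signal was above background on neither array. The remaining genes lie mostly in the body of the chromosomes, and 5067 of them were above background on both arrays. This cut by gene order does not remove every gene near an end. *GIT1*, which the paper measured in the right telomere region of chromosome III, was kept. Background was the 95th percentile of the signals of the fission yeast (*S. pombe*) probe sets on the same array, at a signal of 7.17 in WT and 8.61 in *spt8Δ*.

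The series holds 3 strains, WT, *spt3Δ* and *spt8Δ*, all labelled BY4742, and 1 Affymetrix Yeast Genome 2.0 array was hybridized per strain. Each deletion had been made by recombination with a KanMX cassette, and cells grew at 30 °C in rich YPD medium to an optical density of 0.7. The study asked which genes depend on the contact of SAGA with TATA-binding protein (TBP). Every ratio below comes from a single array a side and has no replicate error and no p-value, and the number of arrays limits the precision. Signals of *spt3Δ* are placed beside those of *spt8Δ* and were read against the same WT array, so both ratios of a gene share the error of its WT signal. Since each signal is relative to the whole array, less of a transcript per cell and fewer cells that make it cannot be told apart.

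SAGA is a large coactivator complex that acetylates and deubiquitinates histones and hands TBP to promoters, above all to those of inducible genes with a TATA box. Spt3 and Spt8 are its TBP-binding subunits. Spt8 can restrain TBP as well as deliver it, and the related SLIK complex, with a shortened Spt7, has Spt3 but no Spt8.

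The deleted gene was read first. *SPT8* (YLR055C, chromosome XII) had a signal of 346 in WT and 5.20 in *spt8Δ*, which did not exceed background and was lower by at least 40.2-fold, against 514 in *spt3Δ*. Its probed neighbors stayed near WT, with signals of 45.0 in WT and 60.0 in *spt8Δ* for the sporulation gene *OSW2* and of 6495 and 6556 for the sterol desaturase gene *ERG3*. *SPT3* was present in both strains, at 288 in WT and 332 in *spt8Δ*. The alpha-specific genes were high on both arrays, as with *MF(ALPHA)1*, the alpha-factor precursor, at 9816 in WT and 7083 in *spt8Δ*, whereas *STE2*, the alpha-factor receptor of a cells, read 48.3 and 50.7. BY4742 is a *MATα* strain that lacks *LYS2*, *LEU2* and *URA3*, and neither *LYS2* (4.17 and 7.20) nor *URA3* (1.13 and 0.328) was above background. *LEU2* was slightly above it, at 9.50 and 34, and *HIS3*, of which this strain keeps a shortened allele, read 1589 and 1774. *MET17*, which this strain keeps, read 6686 and 8377. The strain table of the study gives a *MATa* genotype without this gene, and in mating type and *MET17* the arrays read as the labels do.

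Genes were called lower or higher with a limit of 2 SD about the mean log2 ratio of *spt8Δ* to WT over all genes. These limits were log2 ratios of −0.91 (1.87-fold lower) and 1.01 (2.02-fold higher). Lower in *spt8Δ* were 84 of the 5116 genes (1.64%), and higher were 50 (0.977%). Of all 5116 genes, 4992 were within 2-fold of WT, and the median log2 ratio was 0.070. The called genes closest to the lower limit were *YLR030W* and *YAR010C*, both with a log2 ratio of −0.93, and the closest genes not called were *TPO4* (−0.91) and *TDH1* (−0.90). At the upper limit *MOH1* was called at 1.03, and *CDC13* and *YPR078C* were not called at 1.01 and 1.0. Genes between the limits are described below as inside them.

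The calls depended on signal. Among the 380 genes with a mean signal under 64, 26 were lower (6.84%) and 32 were higher (8.42%), with an SD of the log2 ratio of 0.85. Among the 4736 brighter genes, 58 were lower (1.22%) and 18 were higher (0.38%), with an SD of 0.34. Calls in the higher direction thus came mainly from dim genes, and those in the lower direction mainly from bright ones. Both arrays were above background for 68 lower and 39 higher genes. Genes with only a systematic name made up 13 of the 84 lower genes (15.5%) and 13 of the 50 higher genes (26%), against 389 of all 5116 (7.6%). Where several probe sets read 1 gene, the median range of their log2 ratios was 0.20 and the largest was 3.09.

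**Figure D1:**
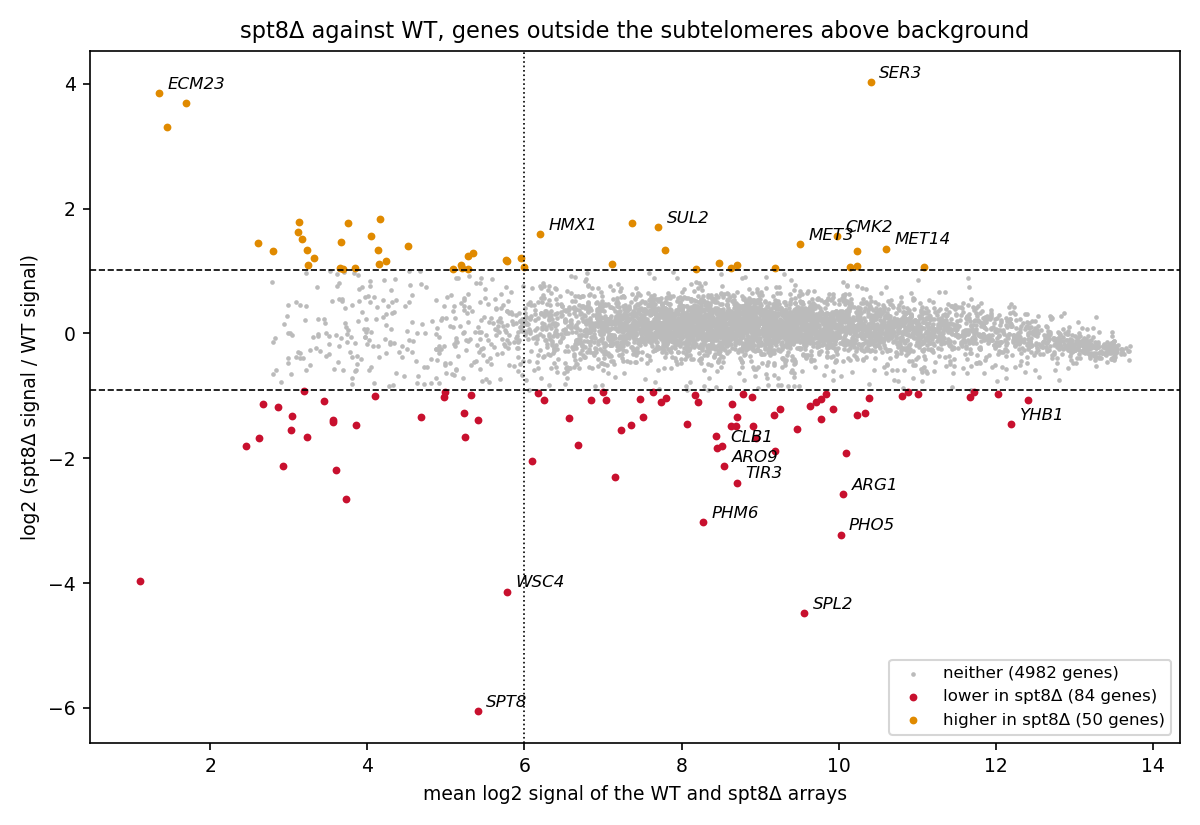
Log2 ratio of *spt8Δ* to WT signal (y axis) against the mean log2 signal of both arrays (x axis) for the 5116 genes, with dashed lines at the limits of 2 SD and a dotted line at a signal of 64. The 84 lower genes (red) reach down to *SPL2* and *PHO5* at high signal, while most of the 50 higher genes (orange) lie left of the dotted line and *SER3* stands alone at the top right.

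Genes of phosphate supply held 3 of the 4 lowest ratios among genes above background on both arrays. When phosphate is short, the factors Pho4 and Pho2 switch on secreted phosphatases, transporters and enzymes that store or release polyphosphate, and *PHO5* is a classic SAGA-dependent promoter. *SPL2*, an inhibitor of low-affinity phosphate uptake, had a signal of 3560 in WT, 160 in *spt8Δ* and 129 in *spt3Δ*, 22.3-fold lower in *spt8Δ* than in WT. *PHO5*, the main secreted acid phosphatase, read 3178 in WT, 341 in *spt8Δ* and 297 in *spt3Δ* (9.33-fold lower in *spt8Δ*). *PHM6*, a phosphate-regulated gene of unknown function, read 883, 109 and 30.7 in the same order (8.10-fold lower in *spt8Δ*). Both mutants were far below WT for these genes, and *PHM6* was lower still in *spt3Δ*. *PHM8*, a phosphatase that acts on nucleotides and lysophosphatidic acid, read 139 in WT and 33.8 in *spt8Δ*, 4.12-fold lower. *VTC3*, a subunit of the vacuolar polyphosphate synthase, read 4631 in WT, 2277 in *spt8Δ* and 3183 in *spt3Δ* (2.03-fold lower in *spt8Δ*). Its partner *VTC4*, the catalytic subunit, was inside the limit at 3762 in WT and 2072 in *spt8Δ*, as was the high-affinity transporter *PHO84* at 9307 and 5530. Of the 14 phosphate genes described, 5 were lower past the limit, against 1.64% of all genes, and none was higher. All 14 were below WT, among them *GIT1*, near the right end of chromosome III, at 37.4 in WT and 32.4 in *spt8Δ*. Their median log2 ratio was −0.73, and that of all genes was 0.070. The median in *spt3Δ* was −0.61, where that of all genes was 0.17. *PHO3*, a second acid phosphatase gene that adjoins *PHO5* and is controlled by thiamine, was also lower, at 2128 in WT and 565 in *spt8Δ* (3.76-fold).

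In arginine synthesis, *ARG1* and *ARG3* were lower in *spt8Δ* and close to WT in *spt3Δ*. These enzymes build arginine from glutamate by way of ornithine and citrulline, under the activator Gcn4 and an arginine-responsive repressor. *ARG1*, argininosuccinate synthetase, had a signal of 2596 in WT, 437 in *spt8Δ* and 2437 in *spt3Δ* (5.94-fold lower in *spt8Δ*). *ARG3*, ornithine carbamoyltransferase, read 190 in WT, 54.9 in *spt8Δ* and 172 in *spt3Δ* (3.47-fold lower in *spt8Δ*). The *spt8Δ* array was thus the low one of 3 for both genes. *ARG4*, argininosuccinate lyase, read 2155 in WT, 1286 in *spt8Δ* and 3459 in *spt3Δ*, with a log2 ratio of −0.74 in *spt8Δ* that was inside the limit. All 8 genes of the pathway were below WT and 2 passed the limit, where 1.64% of all genes did. Their median log2 ratio was −0.47 in *spt8Δ* and 0.15 in *spt3Δ*. The 7 genes that break down arginine and proline lay on the other side, with none past the limit, none below WT and a median of 0.37 in *spt8Δ* against 0.09 in *spt3Δ*. Among them arginase, *CAR1*, read 2161 in WT and 2786 in *spt8Δ*.

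Other amino acid pathways moved little. Over 15 genes of histidine and tryptophan synthesis the median log2 ratio was −0.08, over 11 of branched-chain synthesis −0.16 and over 7 of lysine synthesis 0.05, with none past a limit. The lowest members were *LEU4*, the first enzyme of leucine synthesis (log2 ratio −0.71), *HIS4* (−0.63) and *LYS20*, homocitrate synthase (−0.59). *PCL5*, the cyclin that directs the breakdown of Gcn4, was 3.67-fold lower, at 1117 in WT, 304 in *spt8Δ* and 445 in *spt3Δ*. *GCN4* itself, chosen after its values were seen, read 9123 and 7918. Of the catabolic genes for aromatic amino acids, which yield fusel alcohols, *ARO10*, a decarboxylase, read 315 in WT and 64.2 in *spt8Δ* (4.91-fold lower), and *ARO9*, an aminotransferase, 776 and 178 (4.36-fold lower). Both are induced by aromatic amino acids, and both were lower still in *spt3Δ*, at 34.9 and 83.1. The minor pyruvate decarboxylase gene *PDC6* of the same list was 2.04-fold higher at a low signal (23.7 in WT, 48.5 in *spt8Δ*). Of the 10 genes of this list, 2 were lower, against 1.64% of all genes, and 1 was higher, against 0.977%. The other 7 passed no limit.

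**Figure D2:**
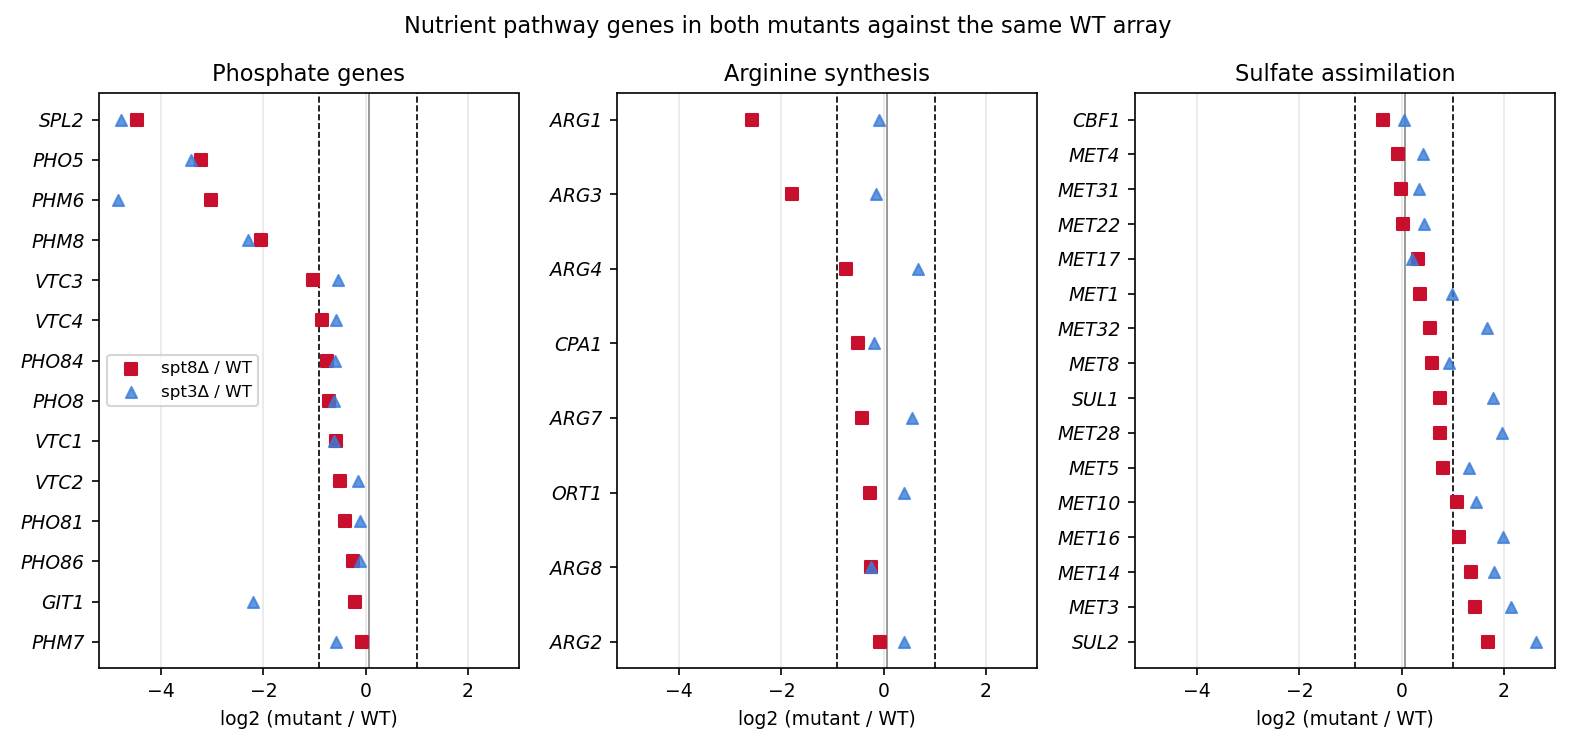
Log2 ratio to WT (x axis) of the genes described for phosphate supply, arginine synthesis and sulfate assimilation (y axis) in *spt8Δ* (red squares) and *spt3Δ* (blue triangles), both read against the same WT array. Dashed lines mark the limits for *spt8Δ* and the grey line its median over all genes. *ARG1* and *ARG3* are low in *spt8Δ* and near WT in *spt3Δ*, phosphate genes are low in both mutants, and most sulfate genes lie to the right, further so in *spt3Δ*.

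Sulfate assimilation held more higher genes than any other list, and no lower gene. It takes up sulfate, activates it with ATP and reduces it to sulfide, which *MET17* joins to a carbon chain to give homocysteine. *SUL2*, a sulfate permease, read 116 in WT, 376 in *spt8Δ* and 714 in *spt3Δ* (3.25-fold higher in *spt8Δ*). *MET3*, ATP sulfurylase, read 443, 1201 and 1952 in the same order (2.71-fold higher in *spt8Δ*), and *MET14*, the kinase of the next step, 973, 2500 and 3434 (2.57-fold higher). In each case *spt8Δ* stood between WT and *spt3Δ*. *MET16*, which reduces the activated sulfate, read 241 in WT and 525 in *spt8Δ* (2.18-fold higher), and *MET10*, a subunit of sulfite reductase, 825 and 1748 (2.12-fold higher). Of the 16 genes described, 5 were higher past the limit, against 0.977% of all genes, and none was lower. Above WT were 13, with a median log2 ratio of 0.68 in *spt8Δ* and 1.39 in *spt3Δ* over the list. The *spt8Δ* median was 0.37 when 50 was added to the signals. *MET17* was inside the limit at 6686 and 8377. The regulators went both ways, all inside the limits. *CBF1*, *MET4* and *MET31* had log2 ratios of −0.37, −0.06 and −0.01, and *MET28* and *MET32* had 0.75 and 0.57. Sulfur genes outside the pathway followed in part. *MUP3*, a methionine permease, was 2.07-fold higher (277 in WT, 571 in *spt8Δ*), though not past the limit after quantile or loess normalization, and *MXR1*, which repairs oxidized methionine, was 2.10-fold higher (1495 and 3133). The wider methionine and S-adenosylmethionine cycle had a median of −0.05 over 17 genes, with *MUP3* its one call. *SSU1*, a sulfite export pump, was lower, at 1914 in WT and 931 in *spt8Δ* (2.06-fold).

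*SER3* had the highest ratio above background on both arrays. It encodes the first enzyme of serine synthesis, and in rich medium it is kept off by transcription of the noncoding *SRG1* across its promoter. Its signal was 337 in WT, 5493 in *spt8Δ* and 6177 in *spt3Δ*, 16.3-fold higher in *spt8Δ* than in WT. Its paralog *SER33* read 1603 in WT and 1726 in *spt8Δ*. Of the glycine cleavage genes of the same list, *GCV1* was lower at 927 and 399 (2.32-fold), and *GCV2* and *GCV3* had log2 ratios of −0.76 and −0.54, inside the limit.

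**Figure D3:**
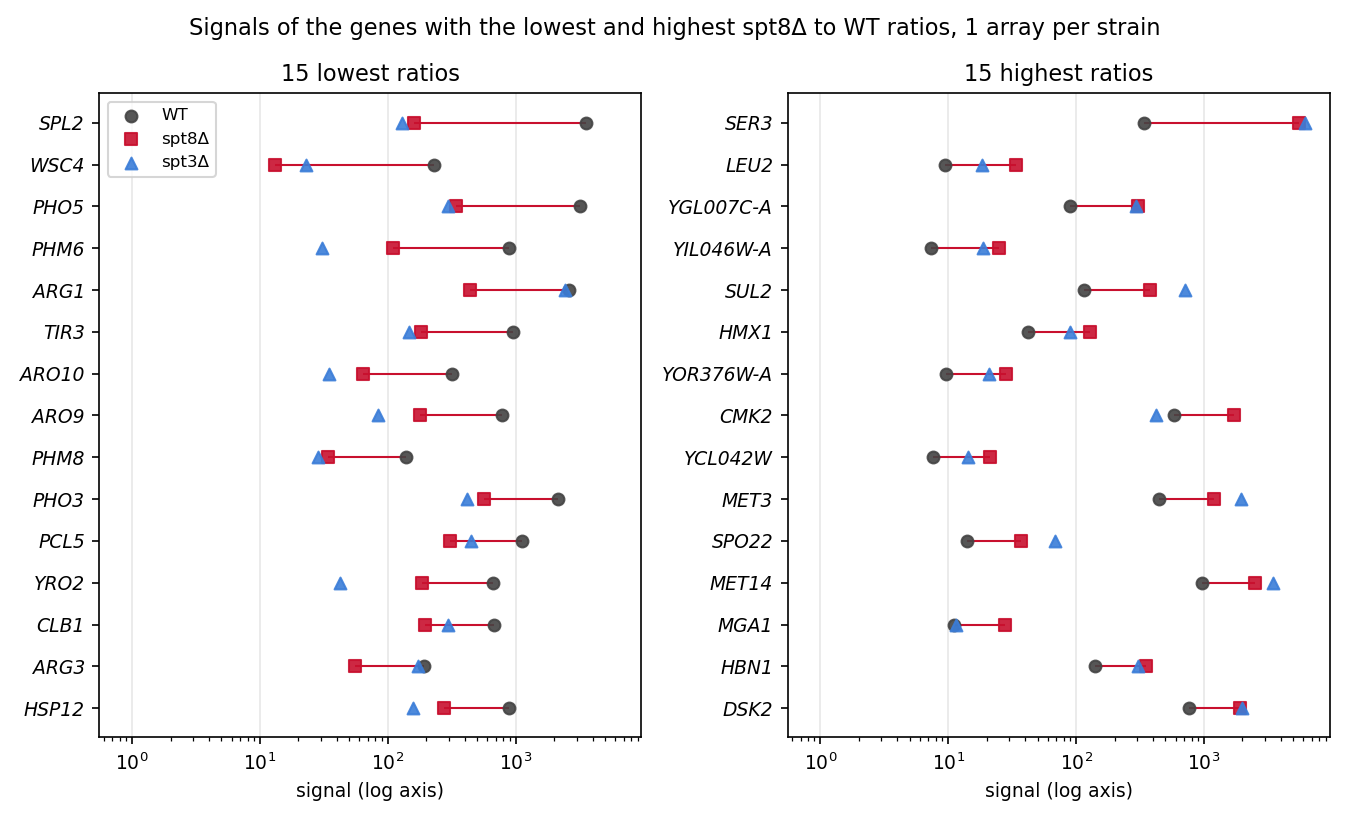
Signal on a log axis for the 15 genes with the lowest and the 15 with the highest ratio of *spt8Δ* to WT among genes above background on both arrays, with WT as circles, *spt8Δ* as squares and *spt3Δ* as triangles. *SER3* goes from 337 in WT to 5493 in *spt8Δ*, and *ARG1*, *ARG3* and *CMK2* are genes where the *spt3Δ* signal stays close to WT.

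Several cell surface genes were lower. *WSC4*, one of the transmembrane sensors of cell wall stress, read 230 in WT, 13.1 in *spt8Δ* and 23.1 in *spt3Δ* (17.6-fold lower in *spt8Δ*). *ROM1*, an exchange factor for the GTPase Rho1 that acts below such sensors, read 110 in WT and 52.3 in *spt8Δ* (2.10-fold lower). Of 18 genes in this pathway these 2 were lower, against 1.64% of all genes. The other 16 passed no limit, and the median was 0.02. *TIR3*, a wall mannoprotein of anaerobic cells, was 5.24-fold lower, at 955 in WT, 182 in *spt8Δ* and 147 in *spt3Δ*. *TIR1*, of the same family, read 2618, 1363 and 352 in the same order (1.92-fold lower in *spt8Δ*). *EXG1*, the major exoglucanase, read 7908 in WT and 3768 in *spt8Δ* (2.10-fold lower), and *SPI1*, a wall protein of stationary phase, 675 and 335 (2.02-fold lower). In all, 4 of 39 wall enzymes and mannoproteins were lower, against 1.64% of all genes, and none was higher, with a median of −0.10. *MNN1*, a mannosyltransferase of the Golgi, was 3.11-fold lower (611 and 196). Hypoxic genes included *COX5B*, the low-oxygen form of a cytochrome c oxidase subunit, at 666 and 262 (2.54-fold lower), while *ANB1* was higher than WT at 1195 and 1864 (log2 ratio 0.64, inside the limit).

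Single genes of cell separation and mating were lower, where 1.64% of all genes were. They were 2 of 16 daughter cell genes, 1 of 5 alpha-specific genes and 3 of 30 genes of the pheromone response. *DSE4*, a glucanase that daughter cells make to part from the mother, read 2539 in WT and 1267 in *spt8Δ* (2.0-fold lower), and *PRY3*, a wall protein of daughter cells, 435 and 203 (2.15-fold lower). The median over the 16 genes of the list was −0.41, with *CTS1*, the chitinase of separation, at −0.70 and *ASH1*, the daughter-specific repressor, at −0.66. All 5 alpha-specific genes were below WT, with a median of −0.55. *SAG1*, the agglutinin of alpha cells, was the one past the limit, at 5826 in WT, 2984 in *spt8Δ* and 1109 in *spt3Δ* (1.95-fold lower in *spt8Δ*), and not so after quantile or loess normalization. Among 30 genes of the pheromone response, *PRM1*, a membrane protein of cell fusion, read 67.7 in WT and 21.4 in *spt8Δ* (3.17-fold lower), and *AGA1*, the anchor subunit of agglutinin, 1259 and 609 (2.07-fold lower). *PRM6* was not above background in *spt8Δ* and was at least 2.23-fold lower. The other 27 passed no limit and had values up to a log2 ratio of 0.64 for *PRM5*.

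The general stress genes that Msn2 and Msn4 control went both ways. Of 45 described, 5 were lower, 3 were higher and 37 were neither, with a median log2 ratio of −0.17. Of all genes, 1.64% were lower and 0.977% higher. *HSP12*, a small membrane-stabilizing protein, read 881 in WT, 275 in *spt8Δ* and 157 in *spt3Δ* (3.20-fold lower in *spt8Δ*), and *DDR2*, a stress-induced gene, 662, 236 and 47.4 (2.81-fold lower). *XBP1*, which represses cyclin genes under stress, was lower by at least 1.62-fold, and *GAD1*, glutamate decarboxylase, read 274 and 143 (1.91-fold lower). The 3 higher genes were *TMA10*, a ribosome-associated protein, at 94.4 in WT and 204 in *spt8Δ* (2.16-fold), *MOH1* at 27.2 and 55.5 (2.04-fold) and *RGI2*, at least 1.54-fold higher. Reserve carbohydrate genes were low at glycogen phosphorylase, *GPH1* (271 in WT, 98.0 in *spt8Δ*, 2.77-fold lower), and at glycogen synthase, *GSY2* (617 and 313, 1.97-fold lower). Trehalose synthase, *TPS1*, was not (1432 and 1633), but *TSL1* of the same list read 924 and 516 (log2 ratio −0.84, inside the limit). Both stress-induced enzymes of glycerol synthesis were lower, *GPP2* at 1901 in WT and 768 in *spt8Δ* (2.48-fold) and *GPD1* at 2890 and 1480 (1.95-fold). None of 31 heat shock chaperones passed a limit, and their median was 0.18, with *HSP104*, the disaggregase, at 1489 and 2121.

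**Figure D4:**
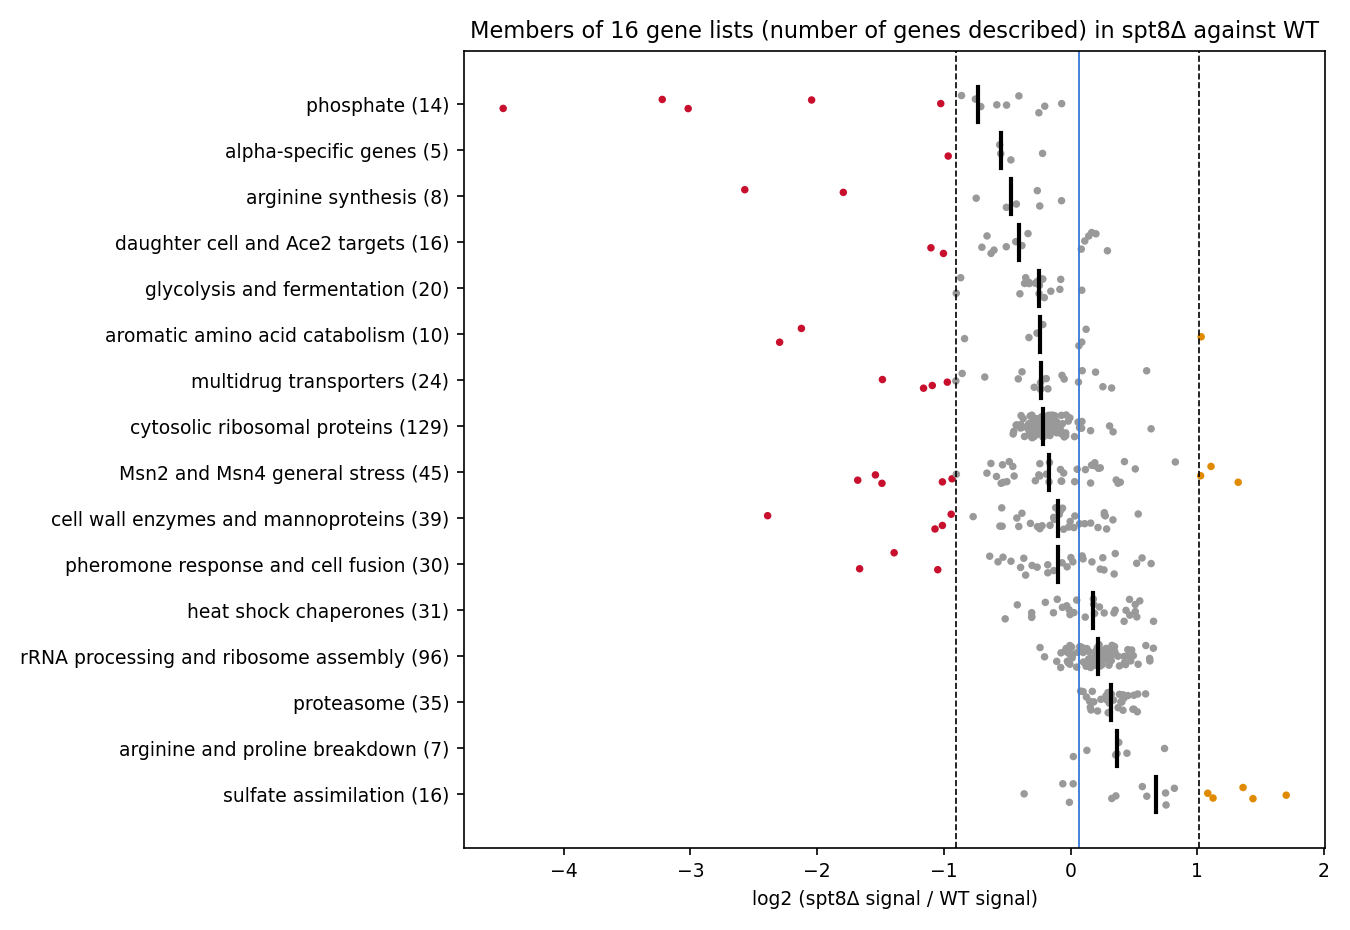
Log2 ratio of *spt8Δ* to WT (x axis) for each member of 16 of the gene lists (y axis, with the number of genes described), with black bars at the medians, dashed lines at the limits and a blue line at the median of all genes. Calls are red (lower) or orange (higher), and the phosphate median at −0.73 and the sulfate median at 0.68 lie at the ends.

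Membrane transporters included *QDR2*, a drug exporter, at 694 in WT and 248 in *spt8Δ* (2.80-fold lower), and the polyamine exporter *TPO1* at 1184 and 530 (2.23-fold lower). *TPO2*, averaged over 2 probe sets of which the array shares 1 between genes, read 1225 and 575 (2.13-fold lower). *PDR12*, the weak acid pump, read 1285 and 655 (1.96-fold lower). Of 24 multidrug transporters 4 were lower, against 1.64% of all genes, none was higher and the median was −0.24. *YHB1*, the flavohemoglobin that removes nitric oxide, was lower too, at 7771 in WT, 2844 in *spt8Δ* and 2822 in *spt3Δ* (2.73-fold lower in *spt8Δ*). *GPX2*, a peroxidase, read 1483 and 638 (2.32-fold lower), with no other call among 28 genes of oxidative defence. *BNA5*, kynureninase of NAD synthesis, read 905 in WT, 367 in *spt8Δ* and 130 in *spt3Δ* (2.46-fold lower in *spt8Δ*). *YHB1* belongs to no list, as do *YRO2*, a membrane protein related to Hsp30 (661 in WT and 186 in *spt8Δ*, 3.56-fold lower), and 36 other lower genes. Single calls in further lists were *FHN1*, of the eisosome (190 and 90.9, 2.09-fold lower), *AGP2*, a permease (320 and 156, 2.05-fold lower), and *DCG1*, in nitrogen use (151 and 59.2, 2.55-fold lower). Higher were *MTH1*, a repressor of hexose transporter genes (40.7 and 94.6, 2.33-fold), and *SNO1*, of vitamin B6 synthesis, at 12.7 in WT, 28.3 in *spt8Δ* and 190 in *spt3Δ* (2.23-fold in *spt8Δ*).

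Among cell cycle genes, only a pair of neighbors passed a limit. *CLB1*, a B-type cyclin of mitosis, read 683 in WT, 195 in *spt8Δ* and 297 in *spt3Δ* (3.50-fold lower in *spt8Δ*), and *CLB6*, a cyclin of S phase, 255, 124 and 247 (2.06-fold lower). These were 2 of 22 regulators, against 1.64% of all genes, and the other 20 passed no limit. The lowest of them were *CLN2*, at 728 in WT and 412 in *spt8Δ* (log2 ratio −0.82), and *FAR1* (−0.53). *CLB1* and *CLB6* lie end to end on chromosome VII. Such neighbors recurred. Of the 84 lower genes, 12 (14.3%) had a lower gene next to them, against 161 of the 5116 described (3.15%). The 6 pairs were *PHO3* and *PHO5*, *PRM7* and *BSC1*, *DIA3* and *GPD1*, *CLB1* and *CLB6*, *SPL2* and *ARO9*, and *SIP4* and *ARG3*. *SPL2* and *ARO9* are divergent, as are *DIA3* and *GPD1*. None of the 50 higher genes had a higher neighbor. Transcripts that run from a gene into the next were not distinguished, and *BSC1* and *SIP4* were not above background in *spt8Δ*.

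Among genes of SAGA, TBP and its regulators, the preinitiation machinery and Mediator, *SPT8* was the one past a limit. Genes of SAGA and SLIK other than *SPT8* ranged from a log2 ratio of −0.28 for *UBP8*, the histone deubiquitinase, to 0.34 for *NGG1*, and none of the 21 passed a limit. *SPT15*, which encodes TBP, read 2440 in WT, 3338 in *spt8Δ* and 3721 in *spt3Δ* (log2 ratio 0.45 in *spt8Δ*). Its 3 control probe sets gave 0.51 at the 3′ end, 0.47 in the middle and 0.55 at the 5′ end. The lowest of 15 TBP regulators were *NCB2*, a subunit of the NC2 repressor, at 1259 and 747 (−0.75) and *MOT1*, the ATPase that removes TBP from DNA, at 834 and 543 (−0.62), both inside the limit. *BDF1*, a bromodomain protein that binds TFIID, belongs to none of these lists and was lower, at 1198 in WT, 416 in *spt8Δ* and 513 in *spt3Δ* (2.88-fold in *spt8Δ*). Its paralog *BDF2*, picked after its values were seen, read 799 and 453 (log2 ratio −0.82). Over 55 genes of the preinitiation machinery and Mediator the median was 0.17, with none past a limit.

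A few genes set *spt8Δ* apart from both other arrays. Of the 84 lower genes 9 were at least 2-fold below both WT and *spt3Δ*, a count that takes in the deleted *SPT8* itself. A mean signal of 64 or more was found for 3 of the 9, namely *ARG1*, *ARG3* and *ATG41*. *ATG41*, an autophagy gene, read 1409 in WT, 547 in *spt8Δ* and 1157 in *spt3Δ* (2.58-fold lower than WT). Of the 50 higher genes 11 were at least 2-fold above both, 4 of them at such signals. *CMK2*, a calmodulin-dependent protein kinase, read 584 in WT, 1728 in *spt8Δ* and 419 in *spt3Δ* (2.96-fold higher than WT), and *YOL014W*, 786, 1637 and 357 (2.08-fold). *RCR1*, a membrane protein of chitin deposition, read 406, 836 and 293 (2.06-fold), and *HUG1*, an inhibitor of ribonucleotide reductase, 204, 416 and 179 (2.04-fold), the last not past the limit after quantile or loess normalization. *CMK2* is known as a target of the calcium-responsive factor Crz1. Of further genes of that pathway, picked after their values were seen, *RCN1*, a calcineurin regulator, read 181 in WT, 283 in *spt8Δ* and 266 in *spt3Δ*, and *CRZ1* 159, 241 and 296, all within 2-fold.

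Other higher genes were few among those with a name and a good signal. *DSK2*, a shuttle that carries ubiquitinated proteins to the proteasome, read 763 in WT and 1909 in *spt8Δ* (2.5-fold higher), *HBN1*, similar to nitroreductases, 140 and 353 (2.53-fold) and *GRX8*, a glutaredoxin, 286 and 613 (2.14-fold). *HMX1*, heme oxygenase, was 3.01-fold higher at 42.3 and 127, with no other call among 23 genes of the iron regulon. *YGL007C-A* read 89.3 and 306 (3.43-fold higher). Of 41 genes of meiosis, silent in growing haploid cells, 4 were higher, where 8.42% of all genes with a signal under 64 were: *SPO22* read 14.1 in WT and 37.2 in *spt8Δ* (2.65-fold), *SPS4* 36.2 and 81.5 (2.25-fold), *NDJ1* 36.7 and 81.8 (2.23-fold), and *SPR3* was at least 2.12-fold higher. With 50 added to each signal, none of these 4 meiotic genes passed the limit. No gene of this list was lower, but sporulation genes outside it were, picked after their values were seen. *SPO1* read 58.0 in WT and 24.1 in *spt8Δ* (2.41-fold lower) and *SHC1* 55.8 and 28.3 (1.97-fold lower). *MPC54* was at least 1.95-fold lower, and all of these also lost the call with 50 added. *LEU2* read 9.50 and 34 (3.57-fold), although BY4742 lacks this gene. Similar signals near background were read for *YIL046W-A* (7.33 in WT and 24.9 in *spt8Δ*), *YOR376W-A* (9.56 and 28.3), *YCL042W* (7.65 and 21.1) and *MGA1*, similar to heat shock factors (11.1 and 28, against 11.5 in *spt3Δ*). The highest ratios of genes above background on *spt8Δ* alone belonged to *ECM23*, *YOR161C-C*, *PTH1*, *YOL019W-A* and *YCL001W-A*, and as bounds they were at least 1.35-fold, 1.63-fold, 1.20-fold, 2.26-fold and 2.13-fold. The lowest of those above background on WT alone, after *SPT8*, were *YOR032W-A*, *YPR015C* and *LOH1*, at least 3.85-fold, 2.99-fold and 1.84-fold lower, and *YML083C*, for which no fold can be given.

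Broad groups of highly expressed genes moved by small amounts, and part of this depended on scaling. The 129 cytosolic ribosomal protein genes had a median log2 ratio of −0.21, with 120 below WT and none past a limit, but their median differed from that of all genes by −0.01 after quantile and −0.02 after loess normalization. The 20 glycolytic genes had a median of −0.25, which differed from that of all genes by −0.32 as deposited and −0.05 after loess. Bright probe sets as a class read low in *spt8Δ*. The 828 genes with a signal over 2048 had a median of −0.089, and 10 bacterial and phage hybridization controls of such signal, which read added transcripts and not yeast RNA, had a median of −0.20, all 10 below 0. The low reading of these controls was not confined to bright signals. Over all 27 of them, at any signal, the median was −0.14, with 26 below 0. *TDH1*, a glyceraldehyde-3-phosphate dehydrogenase gene of slow growth, was lower than its class at 4508 in WT, 2413 in *spt8Δ* and 1291 in *spt3Δ* (log2 ratio −0.90 in *spt8Δ*). So was *GLK1* of the glycolytic list, at 2442, 1339 and 851 in the same order (−0.87 in *spt8Δ*). Control probe sets for *TDH1* gave −0.94 at the 3′ end, −1.72 in the middle and −1.66 at the 5′ end. By contrast, proteasome and ribosome assembly genes kept their place under these scalings. All 35 proteasome genes were above the median of all genes, with a median of 0.32, which was 0.25 above that of all genes as deposited and 0.31 above it after loess. The 96 genes of ribosome assembly had a median of 0.22, with 77 above that of all genes, and lay 0.15 above it as deposited and 0.14 after loess. In all, 32 of the 64 gene lists held a call and 32 held none, among them respiration (37 genes, median 0.03), splicing (71, 0.14), DNA replication (55, 0.13) and ergosterol synthesis (26, −0.12).

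**Figure D5:**
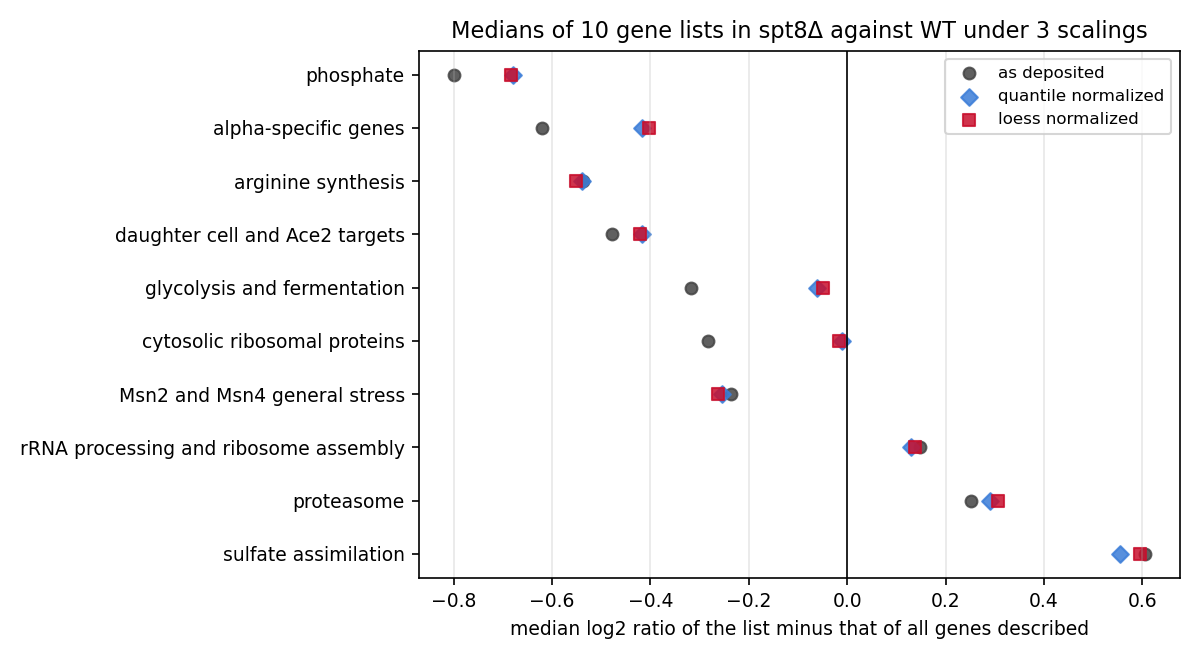
Median log2 ratio of 10 gene lists in *spt8Δ* against WT, minus the median of all genes described (x axis), as deposited (circles), after quantile normalization (diamonds) and after loess normalization (squares). Ribosomal protein and glycolytic genes move to near 0 under both normalizations, while phosphate, arginine, stress, proteasome and sulfate genes keep their side.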

How the data were processed

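Total RNA (200 ng) of each strain was amplified with a 3′ IVT kit and hybridized by the authors to 1 array. MAS5 and Affymetrix Expression Console are named in the submitters' processing notes, for which no version is given in the sources used here. Deposited by the authors were intensity signals, 1 per probe set on a linear scale, background-corrected and scaled to nearly equal trimmed means (500.4 in WT, 500.3 in *spt8Δ* and 500.3 in *spt3Δ*). Of 10928 probe sets, 5498 name an *S. cerevisiae* gene, 1746 an *S. pombe* gene and 3683 no gene, and 1 names several and was left out. Log2 signals of the probe sets of 1 gene were averaged (47 genes), and 73 of the genes described had a probe set shared between genes.

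Ratios, counts and medians were computed in Python 3.11.15 with pandas 2.3.3, numpy 2.4.6 and statsmodels 0.14.6 and were tested on simulated data. With 1 array per strain no test was made. Where only 1 of the arrays was above background, a bound is printed: the signal of that array divided by the background of the other, or by the other signal if that is larger. Gene order, without positions, came from the R64 gene table.

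The use of 2 SD as the limit follows the study, but its value and the genes counted do not. Here the lower limit was 0.533-fold of WT, whereas the study gave another fold and also counted subtelomeric genes. The genes, limits and lists were chosen with earlier results of these data known. Named genes were the deleted genes, strain markers and neighbors of *SPT8*, the 15 lowest and 15 highest ratios above background on both arrays, the 5 lowest and 5 highest above it on 1 array only, and up to 4 members and all calls of each list. Other genes were picked after their values were seen. Alternatives were genes above background on both arrays, the 99th percentile as background, quantile and loess (span 0.3) normalization, 50 added to each signal, limits of 2-fold or 2 robust SD (median absolute deviation times 1.4826), shared probe sets left out and 12 outermost genes per arm.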

Additional observations from a re-analysis of the deposited data

Results flagged for a closer look

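Higher past the limit in *spt8Δ* and lower past the limit of 2 SD for *spt3Δ* were 3 genes, and this difference between the mutants was not tested. *ECM23* had a log2 ratio of 3.86 in *spt8Δ* and −1.77 in *spt3Δ*, from signals of 0.668 in WT, 9.68 in *spt8Δ* and 0.195 in *spt3Δ*. Only *spt8Δ* was above background, so its ratio is at least 1.35-fold and the side of *spt3Δ* cannot be read. *NDJ1*, of meiotic telomere attachment, had 1.16 and −1.27, and *LSO1* had 1.04 and −2.18, with signals of 20.6 in *spt8Δ* and 2.21 in *spt3Δ*, the latter not above background. *YOL014W* was bright, at 1.06 and −1.14, the second inside the limit for *spt3Δ*. Both mutants were read against the same WT array.

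Signals also appeared in probe sets without a gene name. A probe set of the array's reporter class read 2.70 in WT, 10922 in *spt8Δ* and 9831 in *spt3Δ*, at least 1524-fold above WT in *spt8Δ*. What it detects was not examined, and the labels say that both deletions carry a cassette that WT lacks. Among all unnamed probe sets, 4 others with a signal of 64 or more in *spt8Δ* were higher past the limit, and 7 with such a signal in WT were lower, 4 of these also of the reporter class.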

How the results depend on the processing

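With 2 robust SD about the median in place of 2 SD, 242 genes were lower and 163 higher in *spt8Δ*. Under the other 8 alternatives the counts stayed within 1.5 times the main ones, from 68 to 122 lower and from 39 to 54 higher, with the most under 50 added to each signal. Of the 134 called genes, 126 were still past the limit after quantile normalization, 129 after loess and 81 with 50 added, and none changed direction. Similar counts thus did not always mean the same genes. With 50 added, the 122 lower and 54 higher genes held only these 81 of the main calls, and the rest were not called before. The 53 calls lost with 50 added had mean signals of at most 72.3, with a median of 12.7. Of 320 list medians recomputed, 3 moved by more than 0.20, the median range between probe sets of a gene. Among them was that of sulfate assimilation, to 0.37 with 50 added. With quantile or loess normalization, 4 of the lists changed side of the median of all genes: pyrimidine synthesis, oxidative defence, histones and mitochondrial ribosomal proteins. No paired analysis was possible because each strain has 1 array. Ratios of signals near background (7.17 in WT and 8.61 in *spt8Δ*) are the least precise.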
